A study of Homo sapiens with 6 samples.

Results

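The 10 genes described here encode a glucose transporter and 9 of the enzymes, not all, that carry glucose to lactate. They were listed by Ensembl gene identifier, 1 probe set per gene, and all 10 were present among the 26445 probe sets of the deposited table. The list comprised SLC2A1 (ENSG00000117394_at), HK2 (ENSG00000159399_at), GPI (ENSG00000105220_at), PFKP (ENSG00000067057_at), ALDOA (ENSG00000149925_at), GAPDH (ENSG00000111640_at), PGK1 (ENSG00000102144_at), ENO1 (ENSG00000074800_at), PKM (ENSG00000067225_at) and LDHA (ENSG00000134333_at).

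The cells were SW480, a human colorectal cancer line, in the form of a single clone (Clone 13). This clone carries the tetracycline repressor vector pcDNA6TR and the construct pT-Rex-DEST30-KIAA1199, and it was kept under blasticidin S and G418 in serum approved for Tet systems. Both groups share all of this. The doxycycline group (n = 3) received 50 ng/ml doxycycline for 48 h, which switches on KIAA1199, and the uninduced group (n = 3) was labelled as not induced. The treatment field of the labels names the same exposure for all 6 samples, so the groups follow the induction label and the titles. Each of 3 independent experiments gave 1 array of either group, on GeneChip Human Exon 1.0 ST arrays. No array held doxycycline-treated cells without the KIAA1199 construct, so doxycycline and KIAA1199 cannot be told apart. Only the 10 identifiers above carry gene names here. The level of KIAA1199 itself, markers of the SW480 line and further genes of the pathway were not analysed here, and the direction of every difference rests on the sample labels. In bulk RNA, a difference in every cell and one in a share of the cells cannot be told apart.

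Glycolysis splits glucose into pyruvate in the cytosol. Glucose enters through facilitative transporters, is phosphorylated and rearranged at the expense of ATP in the preparatory steps, and then yields ATP and NADH in the payoff steps. Lactate dehydrogenase turns pyruvate into lactate and regenerates NAD+. Many colorectal cancers keep a high rate of this pathway even with oxygen at hand, and several of its genes are known targets of the hypoxia-inducible factors and of MYC.

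After 48 h of doxycycline, SLC2A1 and PKM rose past the limits used here, in limma over the 26445 probe sets. These limits were taken from the study and ask for an unadjusted p below 0.025 and for 1.2-fold or more in either direction. The study applied them with its own paired test to transcript clusters, another grouping of the probes. Its list of changed genes names neither SLC2A1 nor PKM, and the reason for this difference was not tested. Among all 26445 probe sets, 5.83% passed these limits in limma with the experiment as a block, 2.90% of them higher and 2.94% lower with doxycycline. Of the 10 glycolysis genes, 2 passed higher and 0 lower. SLC2A1 was 1.30-fold higher (95% interval 1.15 to 1.45) and PKM 1.23-fold higher (1.09 to 1.39). The mean difference was above 0 for all 10 genes, as it was for 50.5% of all probe sets, and the median over the genes was 0.21 on the log2 scale against 0.0017 over all probe sets. Genes of 1 pathway are not independent of each other, and the list as a whole was not tested.

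No gene reached a Benjamini-Hochberg adjusted p under 0.05 in limma (0 of 10, against 0% of all probe sets). SLC2A1 and PKM both stood at an adjusted p of 0.35, the smallest value that any probe set reached. The adjustment ties probe sets of unlike unadjusted p, here limma p-values of 0.0034 for SLC2A1 and 0.0084 for PKM. The shared value therefore does not place these genes at the top of the table. At an unadjusted p under 0.05 limma placed 6 of the 10 genes and 3248 of the 26445 probe sets, and the methods' t-test, which is paired, placed 4 of the genes (SLC2A1, GPI, ALDOA and PKM) and 2755 probe sets. The methods' t-test passed SLC2A1 and PKM at the same limits, where it passed 2.18% of all probe sets, and it gave no adjusted p under 0.05 either (0). With 3 pairs the exact sign-flip permutation test cannot go below a two-sided p of 0.25, and with 3 arrays against 3 the exact permutation test cannot go below 0.1.

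**Figure D1:**
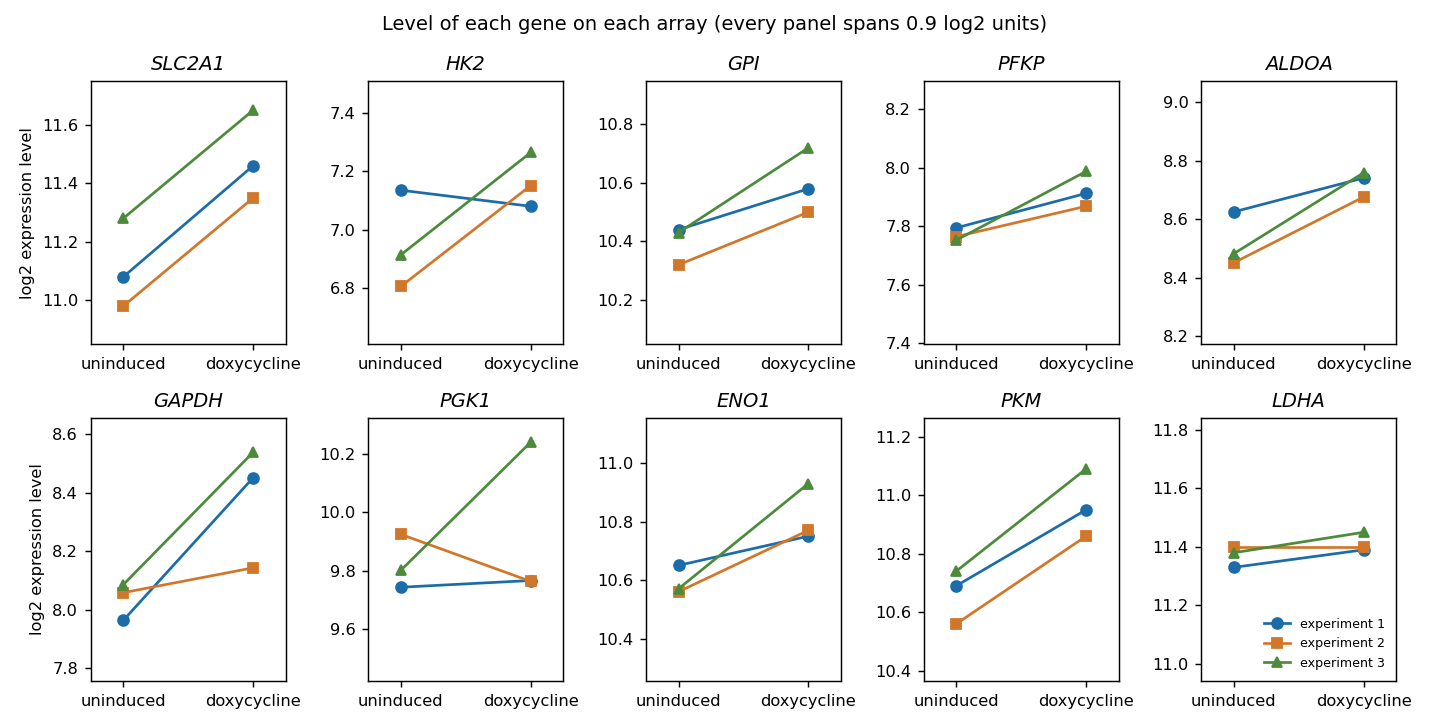
Log2 expression level (y axis) of each of the 10 genes in uninduced and doxycycline-treated cells, with a line joining the 2 arrays of each experiment; every panel spans the same 0.9 log2 units around the gene's own mean. The lines of SLC2A1 and PKM climb in parallel, HK2 and PGK1 each have a line that falls, and the lines of LDHA are nearly flat.

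SLC2A1 encodes GLUT1, the transporter that lets glucose into the cell. Its log2 level without doxycycline was 11.08, 10.98 and 11.28 in experiments 1, 2 and 3, and with doxycycline it was 11.46, 11.35 and 11.65. Every doxycycline array therefore lay above every uninduced array, by at least 0.07. The difference was 0.38, 0.37 and 0.37 in the 3 experiments, while the level itself varied between experiments by an SD of 0.15 in either group. The mean difference was 0.37 (standard error 0.060, limma p = 0.0034, adjusted p = 0.35; exact sign-flip p = 0.25). A rise at least as large was seen in 905 probe sets, 3.42% of the table. SLC2A1 passed the limits in the main analysis and in all 10 alternative ways of fitting it, with a difference between 0.37 and 0.38. Values of 10 or more are deposited in steps of 0.01, so the near identity of the 3 differences cannot be resolved further.

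The preparatory enzymes showed smaller or less even differences, and none of the 4 passed the limits. HK2, the hexokinase that traps glucose as glucose 6-phosphate, measured 7.14, 6.81 and 6.91 without and 7.08, 7.15 and 7.26 with doxycycline. It was lower by 0.055 in experiment 1 and higher by 0.35 in both of the others, and its groups overlapped. Its mean difference was 0.21 (95% interval -0.098 to 0.52, adjusted p = 0.52). Without experiment 1 the HK2 difference was 0.35 with an unadjusted p of 0.025, just inside the limits.

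GPI, which converts glucose 6-phosphate to fructose 6-phosphate, measured 10.44, 10.32 and 10.43 without and 10.58, 10.50 and 10.72 with doxycycline. It was higher in every experiment and its groups did not overlap. The mean difference was 0.20 (95% interval 0.015 to 0.39, adjusted p = 0.39). PFKP, the platelet type of phosphofructokinase, which catalyses the committed step, measured 7.79, 7.76 and 7.75 without and 7.91, 7.87 and 7.99 with doxycycline. The 3 uninduced arrays lay within an SD of 0.022, the tightest uninduced group of the 10 genes. All doxycycline arrays lay above them, with a mean difference of 0.15 (95% interval -0.033 to 0.34, adjusted p = 0.46). ALDOA, the aldolase that splits the 6-carbon sugar, measured 8.63, 8.45 and 8.48 without and 8.74, 8.68 and 8.76 with doxycycline. Its groups were also apart, by 0.051, and the mean difference was 0.21 (95% interval 0.016 to 0.40, adjusted p = 0.39).

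Among the payoff enzymes, PKM passed the limits and GAPDH, PGK1 and ENO1 did not. PKM encodes the muscle-type pyruvate kinase, which makes pyruvate and ATP in the last step; its M1 and M2 splice forms are merged in the gene-level value. PKM measured 10.69, 10.56 and 10.74 without and 10.95, 10.86 and 11.09 with doxycycline. All doxycycline arrays lay above all uninduced arrays, by at least 0.12, the widest such gap among the 10 genes. The differences were 0.26, 0.30 and 0.35, with a mean of 0.30 (standard error 0.063, limma p = 0.0084, adjusted p = 0.35; exact sign-flip p = 0.25). PKM fell outside the limits when any 1 experiment was left out, with unadjusted p-values of 0.031 without experiment 1, 0.045 without experiment 2 and 0.043 without experiment 3, although its difference stayed between 0.28 and 0.33.

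GAPDH, the dehydrogenase that forms NADH and a gene often used as a loading reference, had the second largest mean difference and one of the least even. Its levels were 7.96, 8.06 and 8.09 without and 8.45, 8.14 and 8.54 with doxycycline. The groups did not overlap, but the difference was 0.49 and 0.45 in experiments 1 and 3 and 0.085 in experiment 2. The mean difference was 0.34 (95% interval 0.040 to 0.64, limma p = 0.035, adjusted p = 0.38, exact sign-flip p = 0.25). It passed the limits without the block, with a variance prior that follows the level and, at a difference of 0.47, without experiment 2, with adjusted p-values between 0.24 and 0.64 over its alternatives. The RefSeq gene table lists 65 pseudogenes named after GAPDH, against 0 to 6 for each of the other 9 genes. Whether probes of this set bind their transcripts was not tested.

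PGK1, the kinase that makes the first ATP of the payoff phase, varied most. It measured 9.74, 9.93 and 9.80 without and 9.77, 9.76 and 10.24 with doxycycline, and its groups overlapped. The differences were 0.023, -0.16 and 0.44, with a mean of 0.10 (95% interval -0.29 to 0.49, adjusted p = 0.81). Without experiment 3 the mean turned to -0.069. ENO1, the enolase that forms phosphoenolpyruvate, measured 10.65, 10.56 and 10.57 without and 10.75, 10.77 and 10.93 with doxycycline. Its groups were apart, and the mean difference was 0.22 (95% interval 0.0010 to 0.45, adjusted p = 0.41).

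LDHA, whose product makes lactate from pyruvate, showed the smallest difference. It measured 11.33, 11.40 and 11.38 without and 11.39, 11.40 and 11.45 with doxycycline, and its groups overlapped. The mean difference was 0.043 (95% interval -0.13 to 0.22, adjusted p = 0.82). The interval reaches from 0.91-fold to 1.16-fold, so it leaves out a change as large as the fold limit of 1.2 in either direction but not a smaller one. The largest LDHA difference of the 3 experiments, 0.07, was below the smallest of SLC2A1, 0.37, and of PKM, 0.26.

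**Figure D2:**
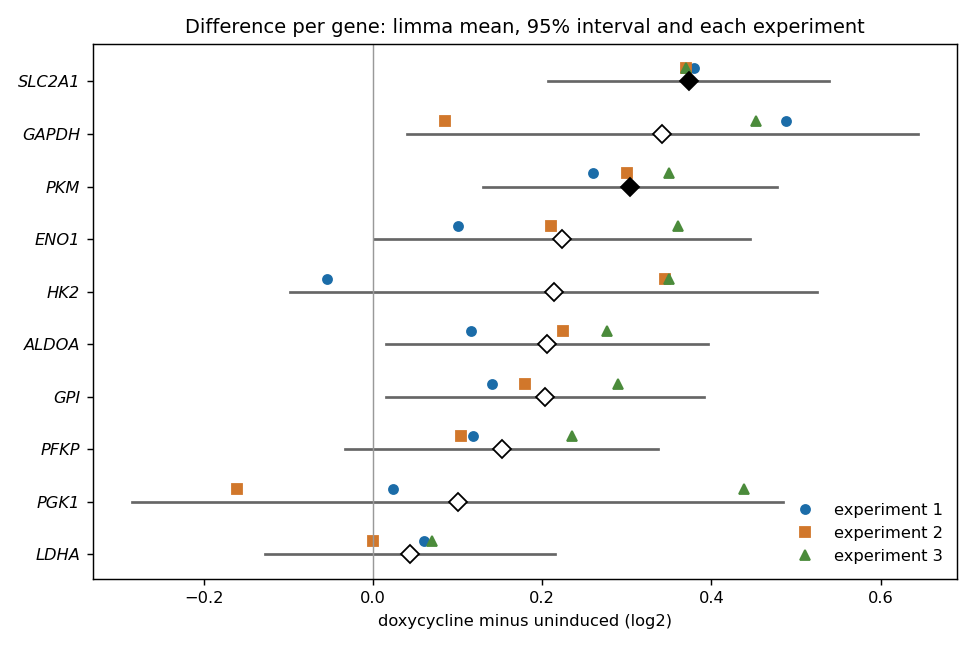
Doxycycline minus uninduced on the log2 scale (x axis) for each gene, ordered by size. Diamonds are limma means, filled for the 2 genes past the limits, bars are 95% intervals, and small symbols are the 3 experiments; the bars of HK2, PFKP, PGK1 and LDHA cross 0.

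Ordered by mean difference, the genes ran from SLC2A1 (0.37), GAPDH (0.34) and PKM (0.30) through ENO1 (0.22), HK2 (0.21), ALDOA (0.21), GPI (0.20) and PFKP (0.15) to PGK1 (0.10) and LDHA (0.043). The step from one gene to the next was smaller than the standard error of either, with the exception of the 0.080 between PKM (standard error 0.063) and ENO1 (0.080). Differences between genes were not tested. The difference was above 0 in all 3 experiments for 7 of the 10 genes, against 18.9% of all probe sets. Every doxycycline array lay above every uninduced array for 7 genes, against 8.64% of all probe sets. These were the same genes by both counts, SLC2A1, GPI, PFKP, ALDOA, GAPDH, ENO1 and PKM. For each of them the exact permutation p was 0.1, its lowest possible value. The mean levels of the 10 genes ranked above 75.5% (HK2) to 99.8% (LDHA) of all probe sets. The shares over all probe sets include dimmer ones, and shares at like levels were not computed.

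**Figure D3:**
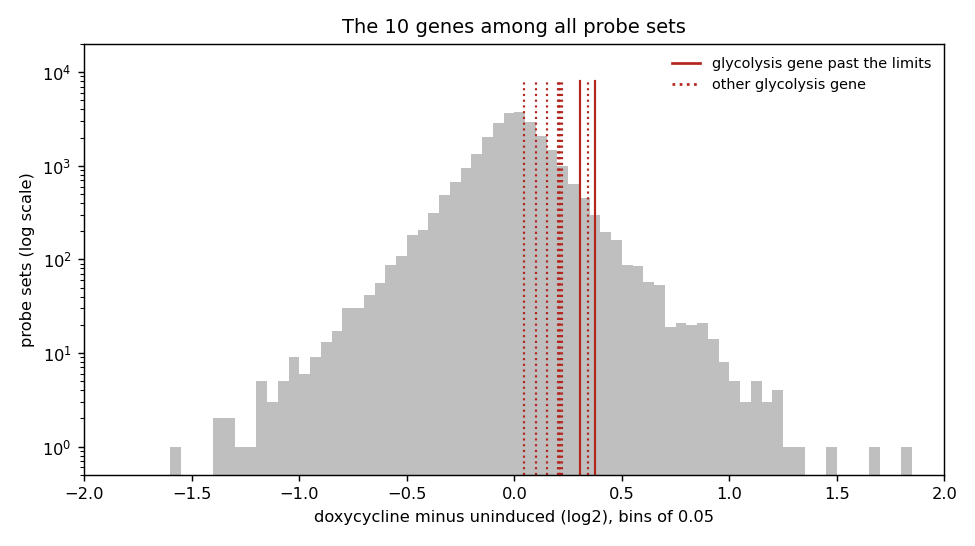
Histogram of doxycycline minus uninduced (x axis, log2, bins of 0.05) over all 26445 probe sets, with the number of probe sets on a log scale (y axis) and a red line for each of the 10 genes. All 10 lines lie to the right of 0, between 0.043 and 0.37, in a distribution that spans -1.55 to 1.83. A rise at least as large was seen in 3.42% of probe sets for SLC2A1 and in 38.1% for LDHA.

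The median difference over the 10 genes varied between experiments, although that of SLC2A1 stayed at 0.37 to 0.38. With 1 pair of arrays in each experiment, this variation was not tested. The median over the 10 genes was 0.12 in experiment 1, 0.20 in experiment 2 and 0.35 in experiment 3, while the median over all probe sets was -0.004, 0.006 and 0.007. Experiment 3 held the largest of the 3 differences for 8 of the 10 genes, against 34.5% of all probe sets, and SLC2A1 and GAPDH had theirs in experiment 1. The doxycycline array of experiment 3 was the highest of its group for 10 of the 10 genes, against 35.3% of all probe sets. The uninduced array of experiment 3 was the highest of its group for 3 of the 10 genes, against 34.1% of all probe sets. The part of this 1 doxycycline array in the differences was not tested beyond leaving its experiment out. Without experiment 3, the median difference over the genes was 0.16.

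SLC2A1 and PKM also shared their order across experiments, with experiment 3 highest, experiment 1 next and experiment 2 lowest in both groups. Over the 6 arrays, the genes whose levels were most like those of SLC2A1 were PKM (Pearson r = 0.98), GPI (0.95) and GAPDH (0.90). After the mean of each group was removed, these values were 0.95, 0.86 and 0.68. Before this removal PGK1 was least like it (r = 0.51), and after it ALDOA was (0.25). The arrays share 1 normalization and only the 10 named genes were compared, so these values describe these arrays.

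The promoters of the 2 genes that passed the limits and of the 2 with the smallest differences follow, because this pathway is known for control through hypoxia-inducible factors and MYC. They are the 250 bases before a transcript start, 5′ to 3′ on the strand of the gene, from RefSeq on GRCh38.p14. For LDHA, which has 2 windows, the one at the lower coordinate is shown. Capitals mark matches, on either strand, to ACGTG and GCGTG, the core letters of the hypoxia response element, and to CACGTG, the E-box bound by MYC, which contains ACGTG on both strands.
SLC2A1, chr1:42958869-42959118, minus strand: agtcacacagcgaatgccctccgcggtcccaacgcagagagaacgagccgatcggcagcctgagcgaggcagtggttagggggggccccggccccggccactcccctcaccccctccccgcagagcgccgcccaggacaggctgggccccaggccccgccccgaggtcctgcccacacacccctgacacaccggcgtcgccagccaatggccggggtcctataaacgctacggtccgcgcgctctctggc
PKM, chr15:72231191-72231440, minus strand: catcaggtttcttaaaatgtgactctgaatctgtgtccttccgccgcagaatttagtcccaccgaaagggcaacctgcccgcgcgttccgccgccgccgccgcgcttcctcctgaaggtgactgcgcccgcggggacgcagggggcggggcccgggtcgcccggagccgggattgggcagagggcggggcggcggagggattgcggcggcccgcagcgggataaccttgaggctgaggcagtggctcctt
PGK1, chrX:78103998-78104247, plus strand: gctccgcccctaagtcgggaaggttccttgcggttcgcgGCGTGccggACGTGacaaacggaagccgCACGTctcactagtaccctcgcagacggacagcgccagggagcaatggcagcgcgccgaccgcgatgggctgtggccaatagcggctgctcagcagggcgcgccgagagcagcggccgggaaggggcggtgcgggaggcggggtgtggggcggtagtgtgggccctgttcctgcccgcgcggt
LDHA, chr11:18394313-18394562, plus strand: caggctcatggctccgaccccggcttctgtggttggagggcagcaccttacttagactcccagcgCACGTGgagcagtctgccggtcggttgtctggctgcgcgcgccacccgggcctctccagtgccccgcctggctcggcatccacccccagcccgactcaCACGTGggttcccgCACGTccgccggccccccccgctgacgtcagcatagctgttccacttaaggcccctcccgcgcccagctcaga

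The windows of SLC2A1 and PKM held none of the 3 motifs. That of PGK1 held 2 ACGTG and 1 GCGTG, and the LDHA window shown held 5 ACGTG matches, 4 of them within 2 CACGTG. The other LDHA window held 1 GCGTG and no ACGTG or CACGTG. Among 35116 such windows in the RefSeq promoter table, 18.5% held ACGTG, 32.2% GCGTG and 6.34% CACGTG. All 10 genes were matched by symbol, with 17 windows because 4 of them have several starts. Of these 17, 10 held ACGTG, 6 GCGTG and 4 CACGTG, the last in HK2, ALDOA, GAPDH and LDHA. A match is no evidence of binding, and its absence refers only to these 250 bases. The 4 windows shown were chosen by the measured differences, and no relation between motifs and differences was tested. The window of GAPDH, whose mean difference was the second largest, held 2 ACGTG matches and 1 CACGTG.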

How the data were processed

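Total RNA of 6 SW480 Clone 13 cultures was hybridized to 6 arrays. The authors deposited log2 expression levels, which the submitters' processing notes credit to RMA, and the same distribution of levels on every array (median 5.66) shows that normalization between arrays was included; background settings, annotation version and detection calls are not given in the sources used here. With 3 arrays a group, array number limits the precision, and no per-sample column was left out.

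Each of the 26445 probe sets entered 1 two-sided linear fit with moderated variances (lmFit and eBayes of limma 3.58.1, under R 4.3.3). The independent experiment was a block, as in the methods' paired design, and Benjamini-Hochberg adjustment ran over the whole table. The limits, taken from the study, were an unadjusted p below 0.025 with 1.2-fold or more. All 10 genes are named in the text, and the 3 genes most like the one with the largest difference were taken by Pearson's r. Fits were tested on simulated data. The gene list and the tests were chosen with earlier results of these data known. Alternatives left out the block, 1 experiment or the 25% dimmest probe sets (all 10 genes stayed), renormalized or centred the arrays, changed the variance prior or the fold change minimum, or used the methods' t-test.

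Beyond their rank among all probe sets, the levels of different probe sets are not compared, since probes differ in brightness. The other pathway genes, cell type markers and KIAA1199 that were to be described could not be matched, because 0 of 59792 rows of the gene table used here hold an Ensembl identifier.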

Additional observations from a re-analysis of the deposited data

How the results depend on the processing

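For the 10 genes under 10 alternatives each, 92 of 100 differences kept their direction and their side of the limits. SLC2A1 kept both in every one. Only the fits that left out an experiment could change a direction, because all the other alternatives return the same mean difference. The 92 of 100 is therefore no measure of robustness. Without replicate 3, PGK1 turned to -0.069, and with 1 experiment left out it ranged up to 0.23. PKM was outside the limits with any experiment left out, at 0.28 to 0.33 (adjusted p 0.49 to 0.62). HK2 was inside them without experiment 1, with a range of 0.15 to 0.35 over the fits that leave out an experiment. GAPDH was inside them at the same 0.34 with no replicate block and with the level-dependent prior, and without experiment 2 in a range of 0.27 to 0.47. With 1 experiment left out, 1 residual degree of freedom remains, and the cause was not tested beyond that.

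The count of glycolysis genes past the limits, 2 in the main analysis, was 3 (SLC2A1, GAPDH and PKM) with no replicate block and with the level-dependent prior, where 1050 and 1585 of all probe sets passed, and 0 at a fold change minimum of 1.5. It was 1 to 2 with an experiment left out, with 1 (SLC2A1) without experiment 3. Over all probe sets, 1543 became 577 with the methods' t-test, 238 at a minimum of 1.5 and 986 to 1344 with an experiment left out. The median difference over the genes stayed between 0.16 and 0.26. The renormalized and centred arrays changed no call, since the deposited arrays already share 1 distribution.

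Whether the experiment numbers pair the arrays was checked on deviations from the group means: same-numbered arrays correlated over the probe sets at r = 0.039, 0.049 and 0.13, and others at -0.092 to 0.044. The block was kept because the methods' test is paired. The planned counts over further pathway genes and the values of KIAA1199 were not run.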
